A study of Mus musculus with 2 samples.

Results

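The cells described here were the dendritic cells (DCs) of cluster 2 in a CITE-seq experiment on mouse spleen, in which the transcripts of each cell were counted together with antibody tags bound to its surface. They were chosen as the cells that the deposited annotation placed in cluster 2 of 20 and to which it gave the coarse label DC. The rule found 1592 of 24343 cells, 552 of 12224 in the WT library and 1040 of 12119 in the Batf3-/- library. Both libraries came from female mice aged 8 weeks, each a pool of the spleens of 6 animals, C57BL/6 WT or Batf3-/-, the latter lacking the transcription factor on which type 1 conventional DCs (cDC1) depend. Live MHCII+ CD11c+ cells had been sorted after T and B cells were depleted. With 1 library per genotype no difference between genotypes could be tested, and intervals given below are 95% intervals that cover counting error only.

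Type 2 conventional DCs (cDC2) present antigen mainly to CD4+ T cells and carry the inhibitory receptor SIRPα. In the spleen they have been divided into cDC2a, marked by the transcription factor T-bet, and cDC2b, which share transcripts with monocytes, among them the C-type lectins Cd209a, Clec10a and Clec12a and the chemokine receptor Ccr2. C-type lectins are surface receptors that bind sugars on pathogens and on the body's own proteins. The comparison asked how the DC-labelled cells of cluster 2 stood against the other Sirpa+ clusters (0, 1, 3, 5, 7, 8, 10 and 11), against the monocyte-labelled cells that shared their cluster, and against cluster 11, the other cluster with cDC2b transcripts. Cluster 9, which the study also places among the Sirpa+ cDC2, was left out of these 8 clusters for its low depth, with a median of 1467 UMIs (unique transcript molecules) per cell in its 374 WT cells and 1487 in its 528 Batf3-/- cells.

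In WT 4.52% (4.15 to 4.90%) of all cells were DC-labelled cells of cluster 2, and in Batf3-/- 8.58% (8.09 to 9.09%). The Batf3-/- library held 31 cells of the resting cDC1 cluster 4 and the WT library 2202, which changes the total that a share is taken of. Among Sirpa+ cells alone the share was 7.20% (6.63 to 7.80%) in WT and 10.0% (9.43 to 10.6%) in Batf3-/-, or 6.87% (6.32 to 7.44%) and 9.52% (8.98 to 10.1%) with cluster 9 counted among them. Within cluster 2 it was 58.6% (55.4 to 61.8%) in WT and 68.4% (66.0 to 70.8%) in Batf3-/-. Nearly all other cells of cluster 2 were labelled as monocytes, 384 in WT and 480 in Batf3-/-. The share was higher in Batf3-/- with each of these totals, but genotype and library cannot be told apart.

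The DC-labelled cells held a median of 8550 UMIs in WT and 9500 in Batf3-/-, close to the 8168 and 9210 of the monocyte-labelled cells. Their median share of mitochondrial transcripts was 3.28% and 3.37%. Phases other than G1 were assigned to 11.2% and 10.2% of them. A doublet caller marked 2 WT and 5 Batf3-/- cells. Of the cell barcodes, 56 occurred in both libraries, and 8 of the DC-labelled cells carried one of these. Monocyte and macrophage genes, 28 in all, summed to 4306 CPM in WT and 4478 CPM in Batf3-/- (CPM, UMIs of a gene per 1000000 UMIs), within the 1545 to 13230 CPM of the 8 other Sirpa+ clusters. They summed to 10390 and 10340 CPM in the monocyte-labelled cells and to 22420 and 29560 CPM in the monocyte cluster 15. The 11 neutrophil genes summed to 17.2 CPM in WT and 11.1 CPM in Batf3-/-, against 12350 and 27180 CPM in cluster 15. The 14 NK, T and ILC genes summed to 9.47 and 11.1 CPM, against 4607 and 4069 in cluster 13. B cell genes came to 74.8 and 96.7 CPM, cDC1 genes to 497 and 442 CPM, plasmacytoid DC genes to 375 and 350 CPM, and splenic macrophage genes to 158 and 147 CPM. The part of these transcripts in the results was not tested.

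Cd209a, which codes for a lectin of the DC-SIGN family, set the cells apart from every other Sirpa+ cluster. It stood at 469 CPM (450 to 488) in WT and 382 CPM (371 to 394) in Batf3-/-. The next cluster was cluster 3, at 289 and 284 CPM. Cluster 11 stood at 257 and 172 CPM, and the lowest cluster at 30.8 and 33.0 CPM. The monocyte-labelled cells of cluster 2 stood above them, at 992 CPM in WT and 859 CPM in Batf3-/-.

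Clec10a, a lectin that binds galactose-type sugars, and Clec12a, an inhibitory lectin, marked the cells less sharply. Clec10a was at 57.2 CPM (50.8 to 64.2) in WT and 46.3 CPM (42.3 to 50.5) in Batf3-/-. Its levels overlapped those of cluster 11, 54.2 CPM (43.9 to 66.1) and 48.5 CPM (40.3 to 57.8), and all other Sirpa+ clusters were at 21.0 CPM or below. Clec12a was at 138 CPM (128 to 149) in WT and 69.8 CPM (64.9 to 75) in Batf3-/-. The WT value overlapped those of clusters 11 and 3, 135 and 128 CPM, and the Batf3-/- value lay below that of cluster 3, 123 CPM, and overlapped that of cluster 11, 82.5 CPM (71.7 to 94.4). For both lectins the monocyte-labelled cells were again higher, at 123 and 149 CPM of Clec10a and 243 and 154 CPM of Clec12a. The 3 markers thus separated the DC-labelled cells from most Sirpa+ clusters, but were not highest in them.

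**Figure D1:**
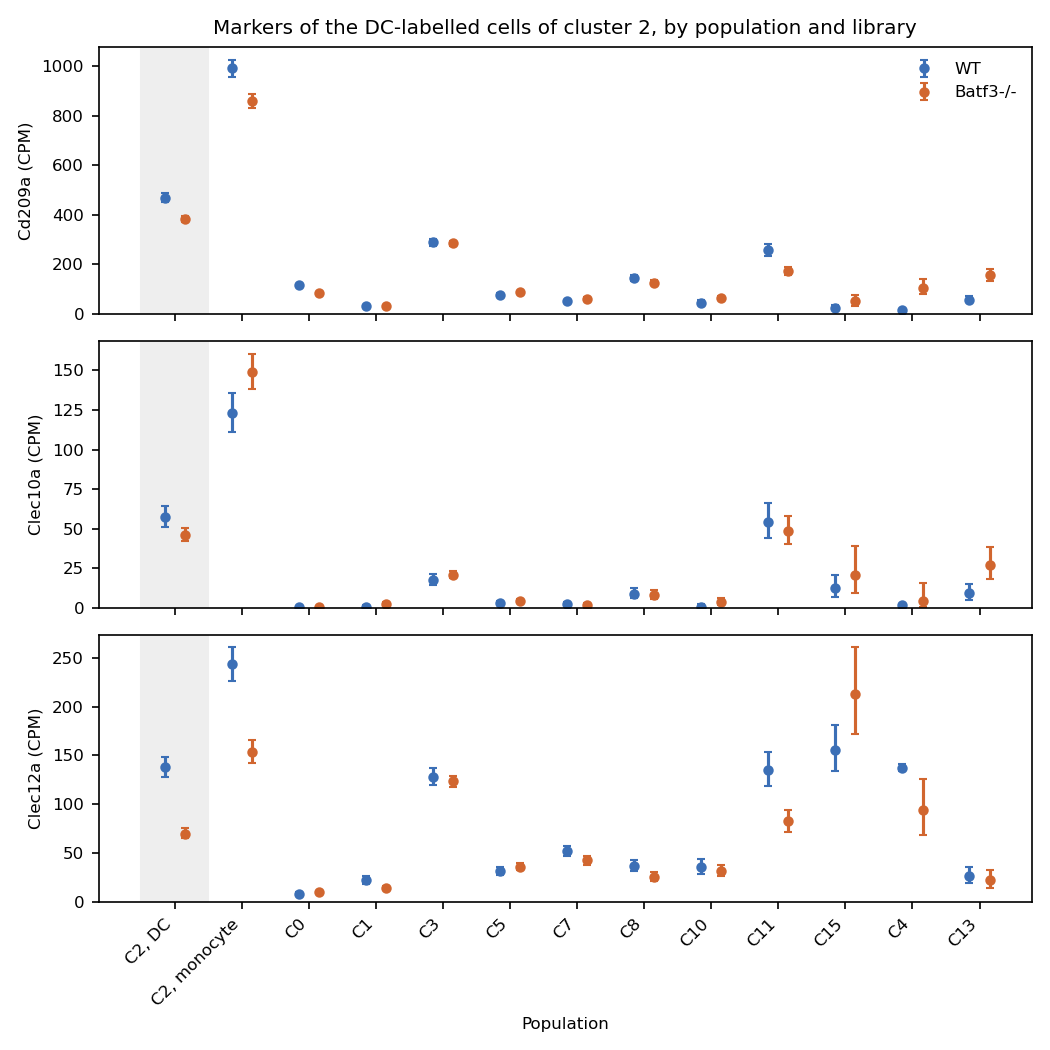
Levels of Cd209a, Clec10a and Clec12a in CPM (vertical axes) in the DC-labelled cells of cluster 2 (C2, DC; shaded), the monocyte-labelled cells of cluster 2, the 8 other Sirpa+ clusters, the monocyte cluster 15, the cDC1 cluster 4 and the NK, T and ILC cluster 13, with WT in blue and Batf3-/- in orange. Points are summed UMIs over summed totals and bars are exact Poisson 95% intervals. Cd209a of the DC-labelled cells, at 469 and 382 CPM, lies above the 8 other Sirpa+ clusters and below the monocyte-labelled cells.

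Single cells were then compared at equal depth, by thinning each to 1000 UMIs. A Cd209a UMI was found in 27.7% (24 to 31.7%) of the WT cells and 26.2% (23.5 to 28.9%) of the Batf3-/- cells. It was found in 17.6% and 16.9% of cluster 3, in 16.8% and 14.2% of cluster 11, and in 45.3% and 45.6% of the monocyte-labelled cells. In the NK, T and ILC cluster 13 it was found in 2.07% and 8.22%. That cluster also held 41 WT and 4 Batf3-/- cells called doublets, and H2-Aa was found in 44.8% and 60.3% of its thinned cells. The source of its lectin UMIs was not tested. Clec12a was found in 12.9% (10.2 to 15.9%) and 5.67% (4.35 to 7.26%), and in cluster 13 in 2.07% and 1.37%. In the cDC1 cluster 4 Clec12a was found in 12.3% of WT cells and in 25.8% (11.9 to 44.6%) of 31 Batf3-/- cells. Cluster 3 had it in 10.7% and 10.1%, and cluster 11 in 10.8% and 7.72%. Clec10a was found in 5.98% (4.15 to 8.29%) of the WT cells and 3.65% (2.60 to 4.98%) of the Batf3-/- cells, against 0.415% (0.0105 to 2.29%) and 3.42% (1.12 to 7.81%) in cluster 13. In cluster 0 it was found in 0.0315% and 0.0339%, below the DC-labelled cells of either library, whereas the Batf3-/- interval of cluster 13, from 146 cells, included the share in the DC-labelled cells. Cluster 11 overlapped the DC-labelled cells, with Clec10a in 3.78% (1.54 to 7.64%) and 4.47% (2.25 to 7.86%). The monocyte-labelled cells had it in 10.9% and 12.1%. Without thinning, the DC-labelled cells with a UMI amounted to 64.5% and 65.5% for Cd209a, 17.6% and 16.2% for Clec10a, and 54.3% and 39.8% for Clec12a. The median depths of cluster 13 were 4830 and 6292 UMIs.

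Across all genes, the DC-labelled cells were set against the mean of the 8 other Sirpa+ clusters, each weighted equally within its library. The genes entered had a mean of 50 CPM or more, and one was counted where it differed at least 2-fold the same way in both libraries. Of 2618 genes, 16 were higher (0.611%) and 67 lower (2.56%), and the median log2 ratio was −0.14. Without ribosomal protein and mitochondrial genes in the totals 29 were higher and 84 lower. Clusters and labels had both been built from these transcripts, so that the ratios describe the cells and were not tested. The mean was taken over both sides, and a gene could enter through the side in which it was high (Clec4a3, Cxcl9 and Cxcl10 through the DC-labelled cells, Dtx1 through the other clusters). Counts and medians over the gene lists therefore describe the genes that entered and support no direction for a list.

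The highest ratio was that of Cxcl9. Cxcl9, a chemokine that attracts activated T cells and is induced by interferon-γ, was at 175 CPM in WT and 224 CPM in Batf3-/-, against 30.3 and 31.6 CPM in the other clusters, a mean log2 ratio of 2.68. From 75.2% to 82.3% of its UMIs came from 32 WT and 73 Batf3-/- cells, state 4 of the 4 cell states found within the DC-labelled cells, and the other cells stood at 46.1 and 43.1 CPM, under 2-fold. Cxcl10, a ligand of the same receptor, followed at 1.94 and was carried by the same cells (81.9% and 83.8% of its UMIs), and the CC chemokines Ccl6 and Ccl9 at 1.93 and 1.71. Cd209a stood at 1.82 and Wfdc17, a small secreted protein, at 1.76. Fcgr2b, the inhibitory receptor for IgG, stood at 1.64, Skint3 at 1.59, the lectin-like receptor Clec4a3 at 1.52, Hpgd, which breaks down prostaglandins, at 1.46, Slfn5 at 1.44 and Slamf8 at 1.33. Several were as high or higher in cluster 11. Fcgr2b was at 101 and 79.3 CPM in the DC-labelled cells and at 113 and 85.2 CPM in cluster 11. Hpgd was at 89.6 and 122 CPM against 198 and 159 CPM. State 4 supplied 31.3% and 37.2% of the Slfn5 UMIs, and without it Slfn5 stood at 0.94 in both libraries, under 2-fold.

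The genes that exceeded the highest of the 8 other clusters by the widest margin in both libraries were led by Skint3. Skint3, a member of an immunoglobulin-like family, was at 141 CPM in WT and 138 CPM in Batf3-/-, and at most 83.2 and 83.3 CPM in the 8 clusters, but at 187 and 185 CPM in the monocyte-labelled cells. Pid1 was at 263 and 279 CPM, against at most 175 and 185 CPM in the 8 clusters and 357 and 390 CPM in the monocyte-labelled cells. Ifitm3, an interferon-induced protein that restricts virus entry, was at 1920 and 1967 CPM, against at most 1472 and 1204 CPM in the 8 clusters and 2734 and 2513 CPM in the monocyte-labelled cells. Cxcl9, Cd209a, Slfn5, the calcium channel Orai1, Ccl6, the iron regulator Hfe and Shisa5 completed the 10 leading genes. The smaller of the log2 margins of these genes over the highest cluster ran from 0.73 for Skint3 to 0.25 for Shisa5. Without the cells of state 4 Cxcl9 stood at 46.1 and 43.1 CPM, below the 122 and 152 CPM of cluster 11.

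The 12 lowest ratios were those of 10 cell cycle genes and of C1qa and C1qb. Pclaf, a partner of the replication clamp, was at 1.78 CPM in WT and 3.99 CPM in Batf3-/-, against a mean of 181 CPM in the other clusters in either library. Birc5, Cenpf, Ccnb2, Ube2c, Stmn1, Top2a, Hist1h2ap, Mki67 and Cdca8, all of the cell cycle, had mean log2 ratios of −3.76 to −5.51. Of the other clusters, 5, 7 and 10 held from 85.0% to 100% of cells outside G1. With G1 cells alone, for which cluster 7 had no WT cell, 15 genes were higher and 49 lower, and the ratios of the cell cycle genes shrank, to −0.40 for Mki67, −1.3 for Pclaf and 0.05 for Top2a. C1qa and C1qb, subunits of complement C1q that macrophages make, were at 5.13 CPM or below in the DC-labelled cells, and their mean in the other clusters came largely from cluster 11, where C1qa reached 986 and 737 CPM. Hbb-bs, a globin, was lower by 6.22 (log2) in WT and by 0.97 in Batf3-/-. Globin and platelet genes summed to 5318 CPM in the WT cells of cluster 11 and 292 CPM in its Batf3-/- cells, and their part in this ratio was not tested.

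**Figure D2:**
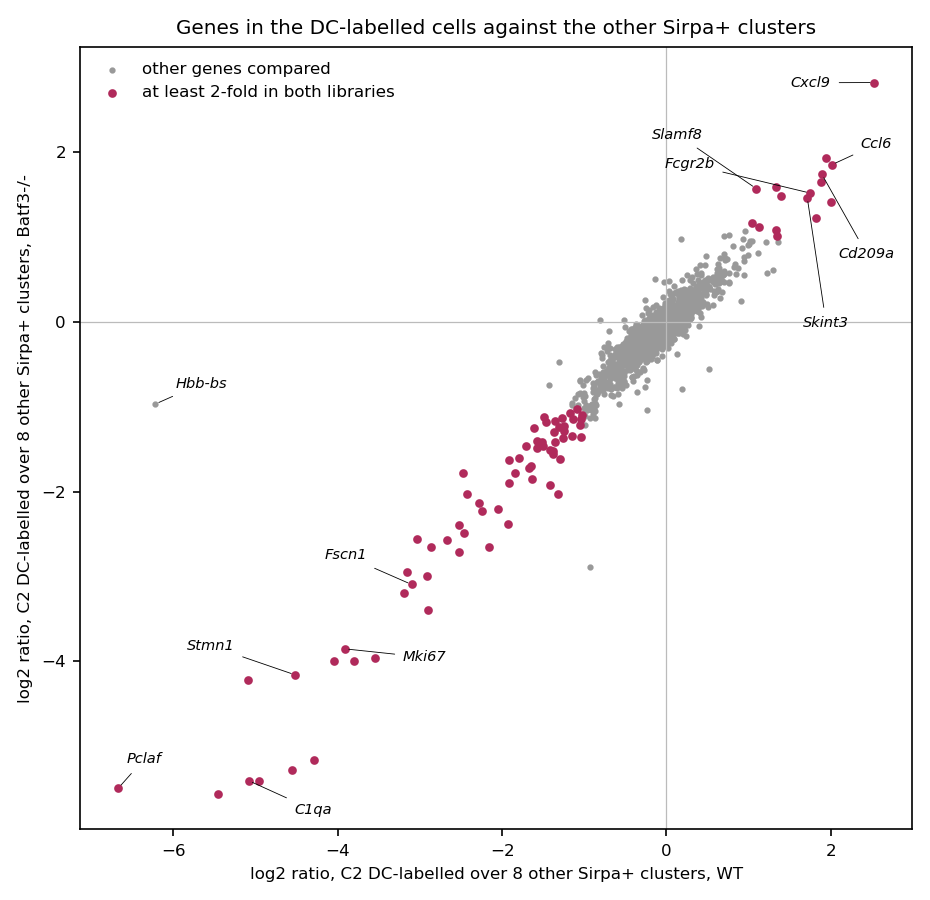
Log2 ratio of each of 2618 genes in the DC-labelled cells of cluster 2 over the equal mean of the 8 other Sirpa+ clusters, in WT (horizontal axis) and Batf3-/- (vertical axis). The 16 genes at least 2-fold higher and the 67 at least 2-fold lower in both libraries are in red, all other genes in grey; Hbb-bs is the gene farthest from the diagonal.

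Of 24 lectin genes in the files 7 reached 50 CPM, all 7 had ratios above 0, and Cd209a and Clec4a3 passed 2-fold. The median log2 ratio was 0.96, against −0.14 over all genes, of which 0.611% passed 2-fold upwards and 2.56% downwards. Cd209a and Clec12a are among the markers by which these cells were named, and Clec4a3 entered through the DC-labelled cells. The count and the median therefore support no direction for lectins as a group. Clec10a did not reach a mean of 50 CPM and so did not enter, with ratios of 2.39 in WT and 2.05 in Batf3-/-. The Fc receptors were represented by Fcgr2b and by Fcer1g, a signalling chain of activating Fc receptors, at 0.37. Among 11 cytokine receptors 0 passed 2-fold in both libraries. Csf1r, the receptor for macrophage colony-stimulating factor, came nearest at 0.99, with 109 CPM in WT and 111 CPM in Batf3-/-. Flt3, the receptor that DCs need for their development, stood at −0.03 and Kit, the stem cell factor receptor, at −0.26.

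Of 12 genes of antigen presentation on MHC class II, all measured, 0 passed the fold, 10 had ratios above 0 and the median was 0.47. H2-Aa, a chain of the class II molecule, stood at 12420 CPM in WT and 11620 CPM in Batf3-/-, against at most 10720 and 10730 CPM in the 8 clusters and 13060 and 13310 CPM in the monocyte-labelled cells. Cd74, the invariant chain, stood at 25810 and 24350 CPM, against at most 23500 and 23390 CPM in the 8 clusters and 27270 and 27140 CPM in the monocyte-labelled cells. H2-DMb1, part of the complex that loads peptides, had the highest ratio, 0.76, and H2-Eb2 the lowest, −0.42. Among 14 genes of lysosomes and their proteases Psap, the precursor of the saposins, passed the fold at 1.18 (0.611% of all genes did) and the protease inhibitor Cst3 stood at 0.90.

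Of 24 interferon-stimulated genes 9 were measured, 8 had ratios above 0 and Cxcl9 and Cxcl10 passed the fold (0.611% of all genes did), with a median of 0.72. Without the cells of state 4 neither passed it, at 0.53 and −0.51. Isg15 then went from 0.48 to −0.86 in WT and from 0.78 to −0.72 in Batf3-/-. The count of ratios above 0 and the median include state 4. Of 12 measured genes of monocytes and macrophages 0 passed the fold upwards and Apoe, C1qa and C1qb downwards, beside 2.56% of all genes, with a median of −0.01. Cluster 11 weighs heavily in this mean. Lyz2 was at 1271 and 1203 CPM in the DC-labelled cells, at 5860 and 5265 CPM in cluster 11 and at no more than 251 CPM in the 7 other clusters. The shares of cells with a Lyz2 UMI at 1000 UMIs differed less. They were 31.7% (27.8 to 35.8%) and 28.1% (25.4 to 30.9%) in the DC-labelled cells. In cluster 11 they were 38.4% (31.3 to 45.8%) and 32.5% (26.7 to 38.8%), with overlapping intervals. The 3 chemokine receptors measured had a median of −0.76, with Ccr7 at −2.16 and Ccr2, which guides monocytes out of the marrow, at 0.74. Ccr2 was at 87.0 and 80.4 CPM, below cluster 3 (142 and 158 CPM) and cluster 11 (180 and 131 CPM). The remaining Sirpa+ clusters had at most 26.1 CPM.

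Of 10 measured genes of maturation, 0 were at least 2-fold higher and 4 lower, beside 2.56% of all genes, with a median of −0.78. Fscn1, which bundles actin in mature DCs, was lower by a log2 ratio of −3.10, Ccr7, the receptor that leads DCs to lymph nodes, by −2.16, Ccl5 by −1.68 and Cd83 by −1.13. The highest levels elsewhere were those of clusters 1 and 8, with Fscn1 at 653 and 927 CPM in cluster 1. Of 5 measured genes among 13 that mark cDC2a, 3 were at least 2-fold lower, again beside 2.56% of all genes. Dtx1, a Notch target, was at 29.4 CPM in WT and 26.1 CPM in Batf3-/-, below all 8 clusters, and Cd7 was at 147 and 131 CPM and above cluster 1, which had 105 and 101 CPM. Nr4a3 had a ratio of −2.48.

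Among 23 transcription factors measured, 0 were at least 2-fold higher and Sox4 was lower, at −1.43, beside 2.56% of all genes. Irf7, which drives interferon genes, stood at 0.86 and Zeb2 at 0.38. Irf7 was uneven within the DC-labelled cells, at 52.4 CPM in WT and 44.7 CPM in Batf3-/- in state 1, against 159 and 171 CPM in the other states together. Klf4 stood at −0.45, Id2 at −0.89 and Batf3 in WT at −0.24. All 5 measured Ms4a and Tmem176 genes lay between 0.26 and 0.52, the 6 NADPH oxidase subunits between −0.41 and 0.62, and the 4 Toll-like receptor genes and adaptors between −0.27 and 0.18. Of 15 immediate early genes and 9 S100 and annexin genes, 0 were at least 2-fold higher, and among the latter Anxa3 was lower, at −2.13.

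Signature genes of splenic cDC2b and cDC2a, drawn from earlier work and used by the study, were summed as a further description. The 146 cDC2b genes found in the files summed to 5765 CPM in the WT cells and 4809 CPM in the Batf3-/- cells. They summed to 885 and 1012 CPM in cluster 0, to 14140 and 13150 CPM in the monocyte-labelled cells, and to 16180 and 13420 CPM in cluster 11. They also summed to 7152 and 7155 CPM in the cDC1 cluster 4 and to 8649 and 7563 CPM in the plasmacytoid cluster 14, so that the sum is not particular to cDC2b. Of these, 13 reached 50 CPM in the comparison with the other clusters. At least 2-fold higher were 5 (Cxcl9, Fcgr2b, Clec4a3, Hpgd and Psap), beside 0.611% of all genes. At least 2-fold lower were 2 (C1qa and C1qb), beside 2.56%. The study had used this same signature in naming the cluster of these cells, so the count higher was partly fixed in advance. Clec4a3 and Cxcl9 entered through the DC-labelled cells. Without state 4 Cxcl9 stood under 2-fold, at log2 ratios of 0.60 in WT and 0.45 in Batf3-/-. The count therefore supports no direction for the signature. The 38 cDC2a genes summed to 698 and 769 CPM, against 2647 and 2569 CPM in cluster 0 and 320 and 366 CPM in the monocyte-labelled cells.

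The monocyte-labelled cells of cluster 2 were the nearest neighbours by construction. Of 2428 genes, 17 were at least 2-fold higher in the DC-labelled cells in both libraries (0.7%) and 18 lower (0.741%); with ribosomal protein and mitochondrial genes taken out of the totals these became 30 and 21, so that 58.8% and not 48.6% of the counted genes were higher. Since the label itself was assigned from these transcripts, the ratios are a description of it. Lyz2, lysozyme, was at 1271 CPM in WT and 1203 CPM in Batf3-/- in the DC-labelled cells and at 6023 and 6391 CPM in the monocyte-labelled cells. Fcgr3, an activating IgG receptor, had the lowest ratio, −3.01 (−3.47 to −2.58) in WT and −2.79 (−3.04 to −2.54) in Batf3-/-. Ace, Ccr2, Ccl9, the transcription factor Cebpb, Hpgd, Mgl2, Clec10a and Fcgr2b completed the 10 lowest, with mean ratios from −2.01 to −1.36. Cd209a was lower too, at −1.12.

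Higher in the DC-labelled cells were Adam23, at 119 and 142 CPM against 20.3 and 24.3 CPM, and Tbc1d4, at 301 and 303 CPM against 52.9 and 76.5 CPM. Kit had ratios of 1.5 (1.16 to 1.84) in WT and 1.70 (1.43 to 1.99) in Batf3-/-. Lyst, Id2, Apol7c, Nedd4, the cyclin Ccnd1, the NF-κB subunit Relb and Ccl5 completed the 10 highest, with mean ratios from 1.52 to 1.27. Ccl5 did not reach 2-fold in WT (0.99). Of the 6 maturation genes measured, Relb and Cd83 passed 2-fold upwards, beside 0.7% of all genes. Of the 12 MHC class II genes 0 passed 2-fold in both libraries. H2-Eb2 (1.05), H2-DMb2 (0.92), H2-Ob (0.89) and H2-Oa (0.61), had ratios above 0, the last 2 coding for H2-O, which restrains peptide loading. H2-Aa (−0.13) and H2-Ab1 (−0.14) lay below 0.

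Against cluster 11, 0 of 2556 genes were at least 2-fold higher in both libraries (0.0%) and 42 were lower (1.64%). Cd209a came nearest, with ratios of 0.87 (0.72 to 1.01) in WT and 1.15 (1.01 to 1.29) in Batf3-/-. S100a10, Lgals1, the integrin subunit Itgb7, Isg15, Skint3, Vrk1, Pstpip1, Cd9 and Klrk1 completed the 10 highest, at 0.99 to 0.66. The lowest were C1qa, C1qc, C1qb, Slpi, the iron exporter Slc40a1, 4 globin genes and the adhesion molecule Vcam1, at −8.21 to −5.33. Of 9 measured genes of splenic macrophages 8 were lower, among them Spic, Hmox1 and Axl at −3.61, −4.59 and −3.54. Lyz2 was lower by −2.17 in level, although the shares of cells with a Lyz2 UMI at 1000 UMIs had overlapping intervals. Clec12a stood at −0.10 and Clec10a at 0.01, or at −0.69 without the cells that a finer label called monocytes.

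The antibody tags gave a readout that the clusters had not used. The rows of the tag tables carry no names. A row was therefore given an antibody only where it and the antibody's gene were each other's best correlation in both libraries after cluster means were removed, a rule chosen after the data were seen. It named 5 of 11 rows, CD11B, CD11C, CD24, CD4 and CD8A, of which 2, CD4 and CD8A, were also named without removing cluster means. The other 6 were not used.

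CD11B, the integrin chain that Itgam encodes, was carried at a median of 74.0 tags per cell in WT and 65.0 in Batf3-/-. The 8 other Sirpa+ clusters ranged from 36.0 to 70.0 in WT and from 29.0 to 55.0 in Batf3-/-, with cluster 11 the highest, so that the DC-labelled cells stood above all 8 in both libraries. The ratio to their mean was 1.48 and 1.51. The quartiles overlapped those of cluster 11, at 57.0 to 96.0 against 47.0 to 92.25 in WT and 51.0 to 82.25 against 38.0 to 72.5 in Batf3-/-. With cluster means removed, this row correlated with Itgam at only 0.15 in WT and 0.18 in Batf3-/-. The monocyte-labelled cells had median tags of 81.0 and 65.0, and the cDC1 of cluster 4, in which Itgam was at 4.04 and 6.38 CPM, 34.0 and 29.0. Itgam transcripts did not follow this order. They were at 53.9 CPM (47.7 to 60.7) in WT and 56.2 CPM (51.8 to 60.9) in Batf3-/-. In cluster 0, whose tag medians were 51.0 and 45, they were at 50.3 and 55.2 CPM. In cluster 10, at 50 and 45 tags, they were at 63.5 CPM (53.9 to 74.2) and 63.3 CPM (55.6 to 71.9), with overlapping intervals.

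**Figure D3:**
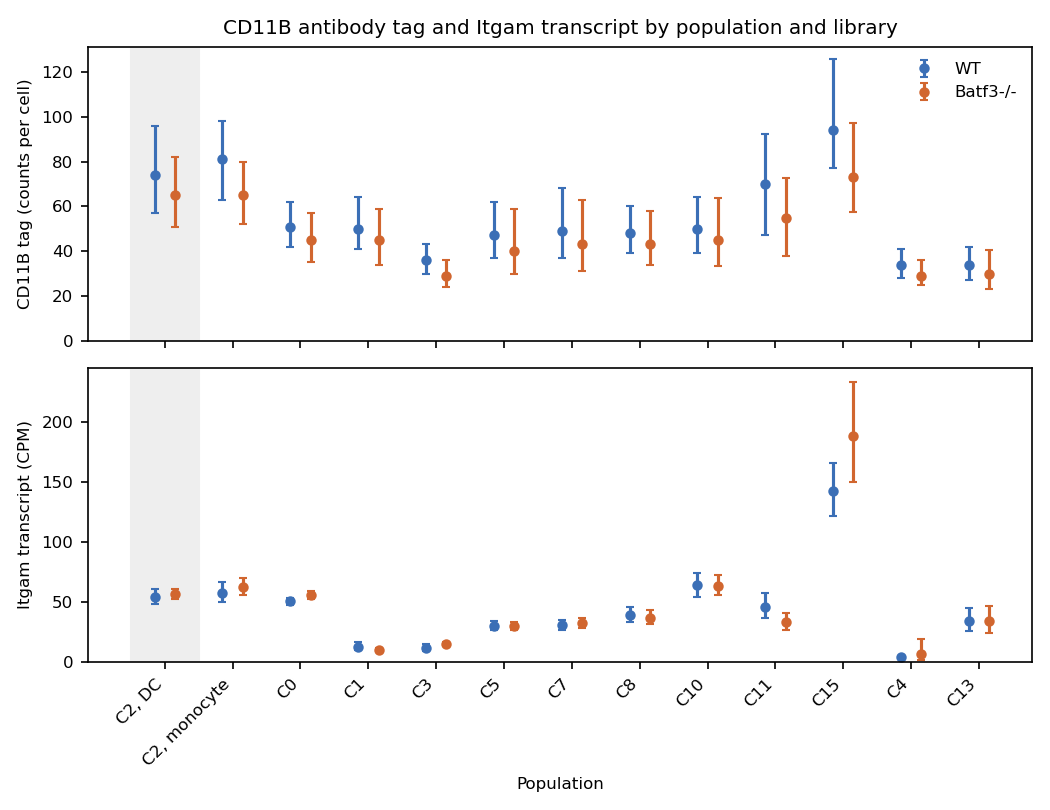
CD11B antibody tags per cell (upper panel, median with quartiles as bars) and Itgam transcript in CPM (lower panel, with exact Poisson 95% intervals) in the same populations, WT in blue and Batf3-/- in orange, with the DC-labelled cells of cluster 2 shaded. The DC-labelled cells lie above the 8 other Sirpa+ clusters for the tag, at 74.0 and 65.0. For the transcript they do not, and their intervals overlap those of cluster 10.

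CD11C was at a median of 71.0 in WT, below all 8 clusters (76.0 to 109), and at 52.0 in Batf3-/-, below 7 of them (51.0 to 69.5). In the low-UMI cluster 9 it was lower still, at 61.0 and 46.0. Before tagging, the cells had been sorted with a CD11c antibody of the same clone as the tag. How far this left CD11C free for the tag was not tested, so the tag medians may not follow surface CD11C. With cluster means removed, the CD11C row correlated with Itgax at only 0.11 in WT and 0.10 in Batf3-/-, and was also the best row for Kit. CD4 was at 34.0 in both libraries, with the clusters between 33.0 and 39.0, and at 27.0 and 31.0 in the background cluster 4. CD8A was at 41.0, with the clusters between 39.0 and 57.0, and was also at 41.0 in the background cluster 0. CD24 was at 34.5 in both, against a mean over the clusters of 39.0 in WT and 35.6 in Batf3-/-. In the background cluster 0 it was at 34.0 and 31.0. As a mean of centred log-ratio values it was below that of the clusters in WT (0.523 against 0.585) and above it in Batf3-/- (0.739 against 0.689), where 1 of the 8 clusters was higher. The upper quartile of CD24 tags was 42.0 in WT and 58.0 in Batf3-/-, so that the direction of CD24 in Batf3-/- depended on the measure.

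Itgax (CD11C) was at 298 CPM (284 to 314) in WT, overlapping clusters 11 and 0 (290 and 286 CPM), and at 204 CPM in Batf3-/-, where those clusters had 224 and 220 CPM. Sirpa was at 287 CPM in WT and 245 CPM in Batf3-/-, with the 8 clusters between 137 and 426 CPM in WT and between 153 and 364 CPM in Batf3-/-. Adgre1, which codes for F4/80, was at 100.2 and 91.8 CPM, and Cd4 at 63.9 and 44.1 CPM. Cd8a (16.4 and 11.7 CPM), Xcr1 (5.92 and 7.43 CPM) and Siglech (4.54 and 1.86 CPM) were low. Cd24a was at 14.2 CPM (11.1 to 17.9) in WT and 26.4 CPM (23.4 to 29.6) in Batf3-/-, both under the minimum of 50 CPM, with the 8 clusters between 10.5 and 108 CPM in WT and between 11.1 and 122 CPM in Batf3-/-.

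The annotation also carried a fine label, and it did not always repeat the coarse one. Of the 1592 cells, 1406 had a fine DC label, 168 a monocyte label and 18 a macrophage label. The commonest was DC.8-4-11B-, named for DCs without CD8, CD4 and CD11B, with 370 WT and 779 Batf3-/- cells, although CD11B tags were highest here among the Sirpa+ clusters. The 68 WT and 100 Batf3-/- cells with a fine monocyte label held more of the cDC2b markers than those with a fine DC label. Cd209a was at 1261 and 903 CPM in them and at 374 and 334 CPM in the cells with a fine DC label. Clec10a was at 264 and 191 CPM against 31.5 and 32.7 CPM, so that the log2 ratio of fine DC over fine monocyte cells was −3.07 (−3.41 to −2.72) in WT and −2.55 (−2.82 to −2.28) in Batf3-/-. In the same order Lyz2 had ratios of 0.15 (0.03 to 0.27) and −0.00 (−0.09 to 0.09), and Flt3 of −0.10 in both libraries with intervals that include 0.

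Unevenness between cells was also measured without labels, and other genes led it. Of 2354 genes with at least 50 CPM in both libraries, the median squared deviation from the count expected at each cell's own depth was 1.15 times that count in WT and 1.16 times in Batf3-/-, where counting alone gives a ratio of 1. It was 77.3 and 134 for Lyz2, 73.7 and 113 for Cxcl9, 46.6 and 73.7 for Cxcl10, 40.7 and 67.2 for Ccl5, and 20.4 and 24.7 for H2-M2, a non-classical MHC class I gene. Malat1, Cst3, Gm42418, Tmsb4x and Actb completed the 10 leading genes. For the same relative difference between cells this ratio is larger in a gene of higher level, so the ranking also depends on level. Clustering of these cells alone gave 4 states, found in both libraries, at a resolution of 0.3, and 2 or 7 at 0.15 or 0.5. Their leading genes define them and are a description.

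State 1, with 294 WT cells (53.3%) and 475 Batf3-/- cells (45.7%), was led by H2-M2 and Lyz2. Lyz2 was at 2003 and 2368 CPM there, against at most 630 CPM in any other state. State 1 also held more Csf1r. State 2, with 151 WT cells (27.4%) and 362 Batf3-/- cells (34.8%), was led by Pglyrp1 and Apoe. Pglyrp1 was at 86.3 and 137 CPM there but at 104 CPM in the WT cells of state 4, and Apoe was at 91.6 and 105 CPM but at 174 CPM in the Batf3-/- cells of state 4. State 2 held Id2 at 207 and 403 CPM, against 126 and 134 CPM in state 1 and 272 and 412 CPM in state 4. Its CD24 tags were at a median of 35.0 in WT and 50.5 in Batf3-/-.

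State 3, with 75 WT cells (13.6%) and 130 Batf3-/- cells (12.5%), was highest in Clec10a, Cd209a and Ccr2. Clec10a was at 254 CPM in WT and 194 CPM in Batf3-/-, against at most 37.8 CPM in any other state, so that state 3 supplied 55.9% and 51.2% of all Clec10a UMIs of the DC-labelled cells. Mgl2, the paralog of Clec10a, was at 192 and 190 CPM and Ccr2 at 318 and 245 CPM. Cd209a reached 1124 and 836 CPM, but state 3 supplied only 30.2% and 26.7% of its UMIs and state 1 38.8% and 37.6%. Clec12a was at 163 and 129 CPM in state 3 and at 164 and 70.2 CPM in state 1, which supplied 61.4% and 41.0% of its UMIs, against 14.9% and 22.6% from state 3. S100a10, Ahnak, Slamf9, Crip1 and Vim led this state as well, and 60% and 44.6% of its cells had a fine monocyte label. Clec10a and Mgl2 are closely similar paralogs, so that reads may be divided between them.

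State 4, with 32 WT cells (5.80%) and 73 Batf3-/- cells (7.02%), was led by interferon-induced genes, Iigp1, Ifit1, Cxcl10, Ifit3 and Cxcl9 among them. Cd8a, a marker of cDC1 in the spleen, was at 158 and 85.6 CPM there and at most 20.4 CPM in any other state, so that state 4 supplied 56.6% and 60.3% of its UMIs, from 47 and 76 UMIs. Ccr7 was highest there as well, at 235 and 121 CPM. Xcr1, another cDC1 marker, was at 13.5 and 20.3 CPM from 4 and 18 UMIs, and state 2 supplied 26.7% and 63.8% of its UMIs. Cd24a was at 20.4 and 75.4 CPM in state 3 and at 74.0 and 38.3 CPM in state 4. The part of other cells in state 4 was not tested. Cxcl9 was at 2240 and 2233 CPM there and at most 69.2 CPM in any other state. State 4 supplied 75.2% and 82.3% of the Cxcl9 UMIs of the DC-labelled cells. Leaving out state 4 lowers the genes that define it by construction, the more so as no cells were taken from the other clusters. The log2 ratios to the other Sirpa+ clusters then went from 2.53 and 2.82 to 0.60 and 0.45 for Cxcl9, and from 1.94 and 1.93 to −0.44 and −0.57 for Cxcl10. Those of Cd209a went from 1.89 and 1.74 to 1.95 and 1.78. CD11B tags were fewest in state 4, at medians of 52.5 and 59.0, against 64.0 to 83.0 in states 1 to 3.

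**Figure D4:**
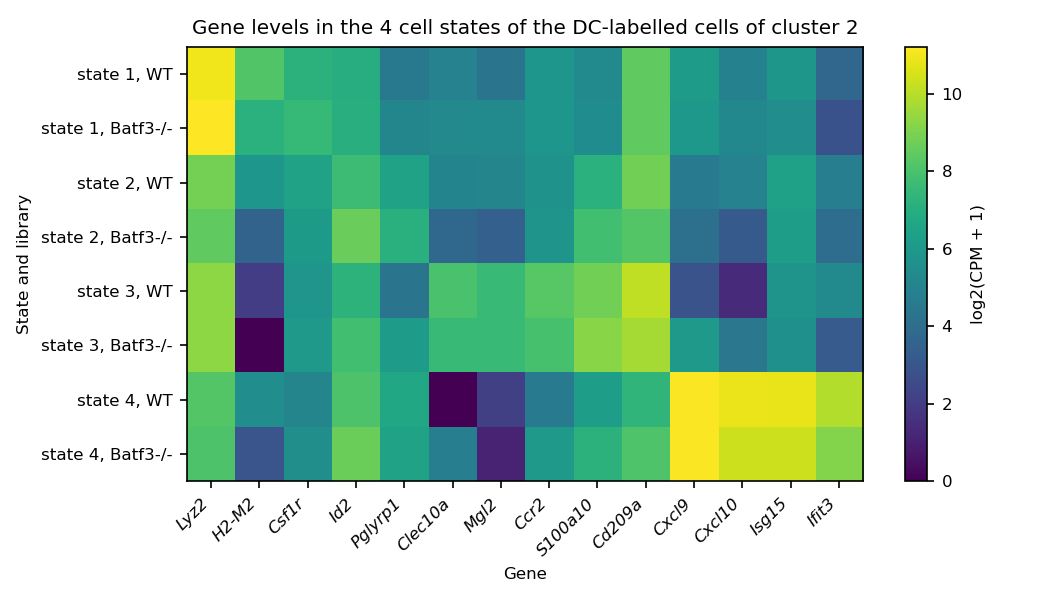
Level of 14 genes (horizontal axis) as log2(CPM + 1), shown by colour, in the 4 cell states of the DC-labelled cells of cluster 2 in each library (vertical axis). Lyz2 and H2-M2 are highest in state 1, Clec10a, Mgl2, Ccr2 and Cd209a in state 3, and Cxcl9, Cxcl10, Isg15 and Ifit3 in state 4.

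Batf3 itself, the deleted gene, was at 147 CPM (136 to 158) in the WT cells and at 1.30 CPM (0.71 to 2.18) in the Batf3-/- cells, from 744 and 14 UMIs. Of 2463 genes, 0 were at least 2-fold higher in the Batf3-/- cells (0.0%) and 5, Batf3 included, were lower (0.203%). Ratios of 90% of genes lay between −0.28 and 0.24 on the log2 scale. The range was −0.39 to 0.32 in cluster 11 and −0.18 to 0.19 in cluster 3.

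Besides Batf3 (−6.82), the genes lower in Batf3-/- were Apol7c, from 134 to 31.3 CPM (−2.10, −2.29 to −1.91), Ear2, an eosinophil-type ribonuclease, from 96.3 to 24 CPM (−2.01, −2.23 to −1.79), H2-M2, from 170 to 62.0 CPM (−1.46, −1.60 to −1.31), and the lectin Clec4b1, from 89.6 to 43.9 CPM (−1.03, −1.22 to −0.84). Ear2 was lower in each of the 8 other Sirpa+ clusters too, by −1.10 to −1.56. For Apol7c the ratios there ran from −0.88 to 0.25, and in the monocyte-labelled cells it was −2.0. Among the states of the DC-labelled cells Apol7c was lower in Batf3-/- in states 1, 2 and 4. In state 3 it went from 28.2 to 44.9 CPM, from 18 and 59 UMIs. Clec12a (−0.98), Ccl5 (−0.97), Ccl9, Efhd2 and Tgfbi completed the 10 lowest. All 12 MHC class II genes had ratios below 0, from −0.34 to −0.04, beside −0.28 to 0.24 for 90% of all genes and a median of 0.02.

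Highest in Batf3-/- was Mndal, a gene of the interferon-inducible Ifi200 family, from 126 to 246 CPM (0.96, 0.84 to 1.09), followed by Pglyrp1 (0.87) and Id2, an inhibitor of E proteins, from 161 to 272 CPM (0.75, 0.64 to 0.87). In the 8 other Sirpa+ clusters Id2 lay between −0.21 and 0.13, whereas Mndal lay between −0.00 and 1.10. Unc119, Cldnd1, Sox4, Sp140, S100a10, Acadl and Vim completed the 10 highest, at 0.72 to 0.57. With the 4 states weighted alike in both libraries the ratio was 0.61 for Id2, −1.18 for H2-M2 and −0.94 for Clec4b1, which left 4 genes past 2-fold. The difference in Id2 was uneven between states, from 126 to 134 CPM in state 1 and from 207 to 403 CPM in state 2.

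**Figure D5:**
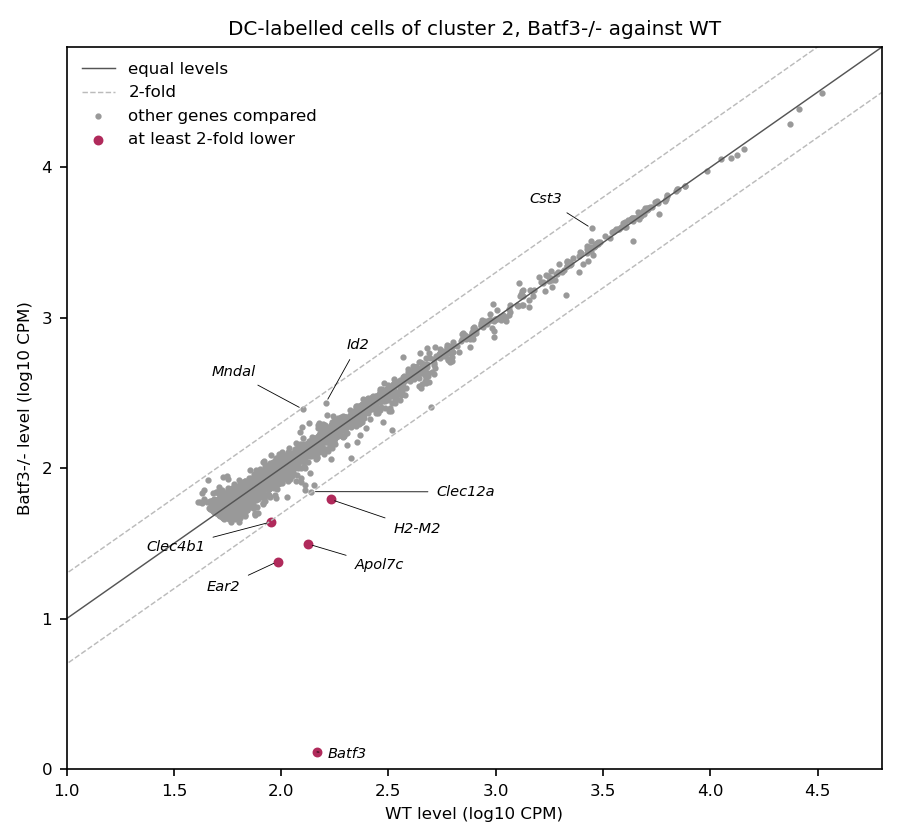
Level of 2463 genes in the DC-labelled cells of cluster 2 in WT (horizontal axis, log10 CPM) and Batf3-/- (vertical axis, log10 CPM), with the line of equal levels and dashed lines at 2-fold. The 5 genes at least 2-fold lower in Batf3-/- are in red, with Batf3 at 147 and 1.30 CPM; none lies above the upper 2-fold line.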

How the data were processed

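Both 10x libraries, 1 per genotype, were analysed (cells sorted once, animals pooled). The authors aligned reads to GRCm38 with Cell Ranger, which evened the depth of both libraries, and used Seurat 3.0.5 for filters and clusters. The deposited UMI counts are whole numbers per gene and cell, and deposited antibody-tag counts were also used. The deposited metadata give the mitochondrial and ribosomal fraction of each cell, and the authors' centred log-ratio (natural log) tag values served for naming rows and as an alternative scale. Clusters and SingleR labels were taken as deposited.

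UMIs were summed per population and library and divided by summed totals (CPM). Genes needed a mean of 50 CPM and 20 UMIs. With 1 library per genotype there was no test; Poisson, Clopper-Pearson and conditional binomial intervals are exact, at 95%, and cover counting error only. Doublets were called with Scrublet at an expected rate of 0.1, set after its first calls were seen, and were kept except in an alternative. States came from Leiden clustering (scanpy 1.11.5, resolution 0.3, 1000 genes, 16 components, 20 neighbours). The calculation of ratios was tested on simulated data. Named genes were the 12 highest and lowest ratios against the other Sirpa+ clusters, the 10 highest and lowest in each other comparison, the 10 highest over every other cluster, the 10 most variable, and members of the lists. The cells and gene lists were chosen with earlier results of these data known. Log-normalized transcript tables were not used.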

Additional observations from a re-analysis of the deposited data

How the results depend on the processing

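Of 905 values of named genes under an alternative, 895 kept their direction and 10 turned, while 29 lost the fold or fell under the minimum level. Without state 4, which lowers its own genes by construction, Cxcl10 against the other Sirpa+ clusters turned to −0.505 and Isg15 against cluster 11 to −0.62. Isg15 against the other Sirpa+ clusters, outside these 905 values, turned to −0.86 in WT and −0.72 in Batf3-/-. Without fine monocyte labels Clec10a turned to −0.685 against cluster 11 and to 0.0514 between genotypes, and Itgam to −0.0105 between genotypes. In G1 cells Top2a turned to 0.0535 against the other Sirpa+ clusters and Clec10a to −0.0791 against cluster 11. Cd4 turned to −0.0231 against the other Sirpa+ clusters with cluster 9 added. Itgax turned against cluster 11 as a mean of per-cell CPM (0.0108) and without ribosomal protein and mitochondrial genes in the totals (0.0175). With a minimum of 20 CPM the counts higher and lower were 30 and 174 against the other Sirpa+ clusters, 33 and 36 against the monocyte-labelled cells, 5 and 86 against cluster 11, and 1 and 9 between genotypes. Without ribosomal protein and mitochondrial genes in the totals 29, 30, 3 and 1 genes were higher in the same order. In the comparison with the other Sirpa+ clusters, G1 cells left cluster 7 out since it had none in WT. With the cells of the 8 clusters summed 42 were lower. In G1 cells 1 gene was higher in Batf3-/-. Without state 4, an alternative chosen after the data were seen like that on fine labels, 10 genes were higher than in the monocyte-labelled cells. The mean CLR difference turned for CD24 in Batf3-/- (0.0504) and for CD4 in WT (0.00013). Against Sirpa+ cells the shares were 7.20% and 10.0%, with cluster 9 among these (chosen after the data were seen) 6.87% and 9.52%, and within cluster 2 they were 58.6% and 68.4%. Thinned to 2000 and 5000 UMIs, the cells with Cd209a were 40.7% and 57.7% in WT and 38.5% and 56.1% in Batf3-/-, those with Clec12a 20.5% and 42.7%, and 13.2% and 24.2%, those with Clec10a 13.98% at 5000 in WT, and 6.48% and 11.3% in Batf3-/-. Resolutions of 0.15 and 0.5 gave 2 and 7 states. The cause of these changes was not tested beyond the number of genes, cells or UMIs that each alternative admits. No paired analysis was possible because each genotype had 1 library.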
